A study of Mus musculus with 17 samples.

Results

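The genes described here are 10 markers of the endothelium of the blood-brain barrier, Cldn5, Cdh5, Pecam1, Slc2a1, Mfsd2a, Abcb1a, Slco1a4, Flt1, Ly6c1 and Itm2a, taken by symbol from the deposited count table, in which each had a single entry. They are 10 of the 56953 genes in the table, and all 10 were among the 23062 genes with enough counts to be tested. RNA of the prefrontal cortex of mice aged 8 months, on the B6C3F1/J background, was sequenced in bulk. There were 5 WT, 6 hTau and 6 CgA-KO/hTau libraries, which the paper counts as biological replicates. The hTau mice are the PS19 line, which carries human Tau with the P301S mutation driven by the Prnp promoter. CgA-KO/hTau mice carry the same transgene and lack Chga, which encodes Chromogranin A, in the whole body; their knockout line was founded on a mixed strain background and then backcrossed, while WT mice carry neither allele. Both sexes were used, and sex is not given for each library.

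The walls of brain capillaries are made of endothelial cells that are sealed to each other by tight and adherens junctions, take up nutrients through dedicated carriers, return many compounds to the blood by efflux pumps, and carry little cargo across in vesicles. Pericytes, the basement membrane and astrocyte endfeet surround these cells, and Wnt ligands from neural cells keep the barrier programme on. These cells are a small part of cortex tissue, so their genes are read here against a background of neuronal and glial RNA. In bulk RNA, fewer cells of a type and less RNA per cell cannot be told apart.

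The libraries differed in depth and in tissue content. Total counts were 8838334 to 227651681 per library, and WT 4 was the shallowest. Chga had 0 counts in every CgA-KO/hTau library and at least 1330 in every other. The summed level of 10 genes of striatal neurons was 1102 to 3182 CPM (counts after division by library size) in WT, 162 to 218 CPM in hTau and 196 to 1780 CPM in CgA-KO/hTau, and all 10 of these genes were lower in hTau than in WT. WT and hTau did not overlap in this sum. In hTau against WT, a fit with the striatal level as a covariate therefore cannot separate tissue content from genotype, whether calls are lost or gained. Ttr, the transthyretin of the choroid plexus, was at 1023 CPM in WT 5 and at most 9.92 CPM in the other libraries. Slc1a2, the main glutamate transporter of astrocytes, was at 199 to 294 CPM in 4 libraries (WT 4, hTau 1, CgA-KO/hTau 5 and CgA-KO/hTau 6) and at 1058 to 4765 CPM in the other 13. Libraries hTau 4, 5 and 6 were more alike than any others over 3761 genes with at least 500 counts. Nothing in the labels says whether these libraries came from separate extractions of separate animals, so the p-values measure only the spread between the libraries.

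All 10 genes were expressed in every library, the lowest count of any of them being 55, for Cldn5 in the shallowest library. Levels are given as CPM with library sizes normalized by TMM, and genes are compared with each other only per kilobase of exon. On that scale Slc2a1 was highest in each genotype, with means of 16.9, 19.1 and 17.9 CPM per kilobase in WT, hTau and CgA-KO/hTau. Itm2a and Cldn5 came next in each genotype, at 14.3 and 10.9 CPM per kilobase in WT. Ly6c1 followed in each genotype (6.23 CPM per kilobase in WT), and then Mfsd2a, Flt1, Slco1a4 and Abcb1a, which lay between 4.69 and 5.36 CPM per kilobase in WT. Cdh5 and Pecam1 were lowest in each genotype, at 3.53 and 2.86 CPM per kilobase in WT. Of the 27 pairs of neighbours in these orders over the 3 genotypes, 1 had ranges that did not overlap (Abcb1a above Cdh5 in WT), and 9 kept the same order in every library of their genotype.

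None of the 10 genes passed the test in any of the 3 comparisons (edgeR quasi-likelihood test, adjusted p under 0.05 over all genes tested). At that threshold 5.9% of all genes were called between hTau and WT (1.95% higher and 3.95% lower), 9.72% between CgA-KO/hTau and hTau (5.5% higher and 4.22% lower), and 6.46% between CgA-KO/hTau and WT (3.56% higher and 2.89% lower). With such shares, a count of 0 in 10 genes does not set them apart from the rest of the table. No gene of the 10 had libraries of the compared genotypes that did not overlap, against 9.52%, 6.63% and 3.6% of all genes in the same order of comparisons. At an unadjusted p under 0.05, Flt1 alone passed, in both comparisons with WT, where 20.9% (hTau) and 21.7% (CgA-KO/hTau) of all genes did; none passed between CgA-KO/hTau and hTau, where 27.8% of all genes did. The other tools run gave 0 calls with DESeq2 and 1 with limma voom (Flt1, hTau against WT). What the data give for these genes is therefore the size of change that they leave possible, which is taken up gene by gene.

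**Figure D1:**
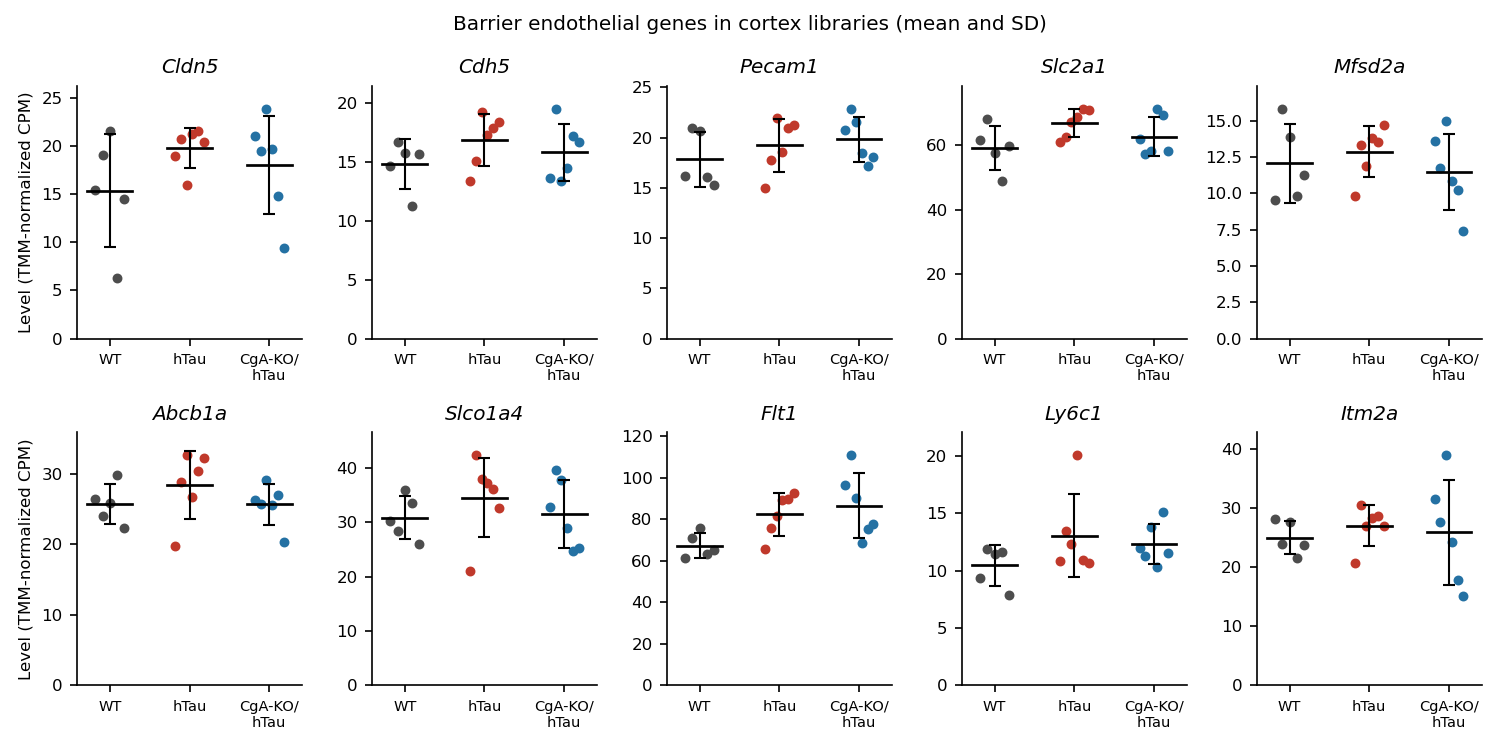
Level of each of the 10 barrier endothelial genes in TMM-normalized CPM (y axis, from 0, with its own scale for each gene) in WT (grey), hTau (red) and CgA-KO/hTau (blue) mice. Each point is a library, the horizontal bar is the mean and the whiskers are 1 SD (n = 5, 6 and 6); for all 10 genes the 3 genotypes overlap.

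Junction genes come first. Cldn5 encodes claudin-5, the claudin that dominates the tight junctions of brain endothelium. Its level was 15.4, 19.2, 21.6, 6.27 and 14.6 CPM in WT 1 to 5. In hTau it ranged from 16.0 to 21.6 CPM with a median of 20.6, and in CgA-KO/hTau from 9.47 to 23.9 CPM with a median of 19.6. The lowest values were in WT 4 and CgA-KO/hTau 6, the shallowest library of each of those genotypes, and the rest lay between 14.6 and 23.9 CPM. Both libraries were also low in Slc1a2. Cldn5 had the widest intervals of the 10 genes: the log2 difference was 0.35 (95% interval -0.16 to 0.86) for hTau against WT and -0.13 (-0.62 to 0.35) for CgA-KO/hTau against hTau. Without WT 4 the first was 0.17, and CgA-KO/hTau against WT went from 0.22 to 0.03. Without CgA-KO/hTau 6 the difference from hTau was 0.00 (-0.0028).

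Cdh5 encodes VE-cadherin, which joins endothelial cells at adherens junctions. It was at 14.7, 16.8, 15.8, 11.3 and 15.7 CPM in WT 1 to 5, from 13.4 to 19.3 CPM in hTau (median 17.6) and from 13.4 to 19.5 CPM in CgA-KO/hTau (median 15.6). Its lowest value was again in WT 4. The log2 difference was 0.18 (SE 0.13, adjusted p = 0.461) in hTau against WT and -0.10 (SE 0.12, adjusted p = 0.652) in CgA-KO/hTau against hTau. Pecam1, the platelet endothelial adhesion molecule CD31, was at 16.2, 20.9, 20.6, 16.1 and 15.3 CPM in WT 1 to 5. In hTau it lay between 15.0 and 21.9 CPM (median 19.7) and in CgA-KO/hTau between 17.1 and 22.8 CPM (median 19.6). The 3 ranges were nearly the same, and Pecam1 differed by 0.11 (-0.15 to 0.37), 0.04 (-0.20 to 0.29) and 0.15 (-0.11 to 0.41) on the log2 scale in hTau against WT, CgA-KO/hTau against hTau and CgA-KO/hTau against WT.

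Several of the genes move molecules across the endothelium. Slc2a1 encodes the glucose transporter GLUT1, the route of glucose into the brain. Its level was 61.5, 68.0, 57.7, 49.0 and 59.7 CPM in WT 1 to 5, from 61.0 to 71.3 CPM in hTau with a median of 67.9, and from 57.3 to 71.2 CPM in CgA-KO/hTau with a median of 60.1. All 6 hTau libraries lay above the WT median, yet WT 1 and WT 2 lay inside the hTau range. Slc2a1 gave the narrowest intervals of the 10 genes. The log2 difference was 0.17 (-0.02 to 0.37, adjusted p = 0.294) in hTau against WT, -0.09 (-0.28 to 0.09, adjusted p = 0.517) in CgA-KO/hTau against hTau and 0.08 (-0.11 to 0.28, adjusted p = 0.666) in CgA-KO/hTau against WT, so that in each comparison the interval ended within 1.29-fold upward and 0.825-fold downward.

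Mfsd2a carries lysophospholipids with docosahexaenoic acid into the brain and keeps vesicle transport low. It was measured at 9.54, 15.8, 13.9, 9.81 and 11.3 CPM in WT 1 to 5. In hTau its range was 9.82 to 14.7 CPM (median 13.5) and in CgA-KO/hTau 7.42 to 15.0 CPM (median 11.3). Its lowest library in each transgenic genotype was one with low Slc1a2, hTau 1 and CgA-KO/hTau 6. The log2 difference was 0.09 (-0.28 to 0.45) in hTau against WT and -0.16 (-0.51 to 0.18) in CgA-KO/hTau against hTau.

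Abcb1a encodes the efflux pump P-glycoprotein. Its levels in WT 1 to 5 were 26.4, 24.1, 25.9, 29.9 and 22.3 CPM. The hTau libraries ran from 19.7 to 32.6 CPM (median 29.6) and the CgA-KO/hTau libraries from 20.4 to 29.1 CPM (median 26.0). The CgA-KO/hTau and WT means were 25.7 ± 2.91 CPM (SD, n = 6) and 25.7 ± 2.84 CPM (SD, n = 5), with a log2 difference of 0.00 (-0.26 to 0.27). The lowest hTau library, hTau 1, lay below every WT library while hTau 3, 5 and 6 lay above all of them, and the difference of hTau from WT was 0.15 (-0.12 to 0.41, adjusted p = 0.544). With the 4 libraries of low Slc1a2 left out, a choice made after seeing the data, Abcb1a was higher in hTau than in WT by 0.30 (adjusted p = 0.0472).

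Slco1a4 encodes an organic anion transporter of both faces of the brain endothelium. It was at 30.3, 28.4, 36.0, 33.5 and 26.1 CPM in WT 1 to 5. In hTau it ran from 21.1 to 42.3 CPM (median 36.7) and in CgA-KO/hTau from 24.7 to 39.6 CPM (median 30.9). Library hTau 1 was the lowest of all 17 and hTau 2 the highest. The intervals of its log2 difference were -0.18 to 0.51 in hTau against WT, -0.46 to 0.20 in CgA-KO/hTau against hTau and -0.31 to 0.38 in CgA-KO/hTau against WT.

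Flt1 encodes VEGF receptor 1, which binds VEGF-A tightly and limits its action on the signalling receptor. Its level was 61.4, 71.0, 75.9, 62.9 and 65.1 CPM in WT 1 to 5. In hTau it ranged from 65.5 to 92.6 CPM (median 85.2), and in CgA-KO/hTau from 68.4 to 110.7 CPM (median 83.9). All 6 hTau and all 6 CgA-KO/hTau libraries lay above the WT median, with WT 2 and WT 3 inside the range of either transgenic genotype. Flt1 had the smallest p-values of the 10 genes. It was 1.22-fold the WT level in hTau (log2 0.29, SE 0.12, adjusted p = 0.184) and 1.28-fold in CgA-KO/hTau (log2 0.36, SE 0.12, adjusted p = 0.0913), and neither passed the threshold; CgA-KO/hTau against hTau gave 0.07 (-0.18 to 0.32). Without CgA-KO/hTau 4, the lowest library of its genotype for Flt1, the difference from WT was 0.43 (adjusted p = 0.0376). With the level of the striatal genes as a covariate it was 0.59 (adjusted p = 0.0362) in hTau and 0.52 (adjusted p = 0.0115) in CgA-KO/hTau against WT. Leaving out the 4 libraries of low Slc1a2 gave 0.42 (adjusted p = 0.0466) for CgA-KO/hTau against WT. The call for Flt1 therefore turned on which libraries and covariates entered the fit.

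Ly6c1 and Itm2a are surface proteins of brain endothelium with less settled roles there. Ly6c1 was at 9.34, 11.9, 11.5, 11.6 and 7.84 CPM in WT 1 to 5. In hTau it ran from 10.7 to 20.05 CPM (median 11.6), the highest being hTau 4, and in CgA-KO/hTau from 10.3 to 15.1 CPM (median 11.7). Apart from hTau 4, the hTau libraries did not exceed 13.5 CPM. The log2 difference was 0.33 (-0.03 to 0.68, adjusted p = 0.288) in hTau against WT, and 0.16 without hTau 4. Against hTau, CgA-KO/hTau differed by -0.08 (-0.42 to 0.25), or by 0.09 without hTau 4.

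Itm2a, an integral membrane protein, was at 28.1, 23.9, 27.6, 21.4 and 23.7 CPM in WT 1 to 5 and from 20.6 to 30.6 CPM in hTau (median 27.7). CgA-KO/hTau was more dispersed, with 15.1 to 38.9 CPM (median 25.9) and a coefficient of variation of 34.1% against 11.4% in WT and 12.6% in hTau. The lowest 2 of the CgA-KO/hTau libraries were numbers 6 and 5, both with low Slc1a2, and the highest was number 3. Its log2 difference was 0.11 (-0.29 to 0.51) in hTau against WT and -0.06 (-0.44 to 0.32) in CgA-KO/hTau against hTau. With the striatal level as a covariate Itm2a was called higher in hTau than in WT, by 0.84 (adjusted p = 0.0173).

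**Figure D2:**
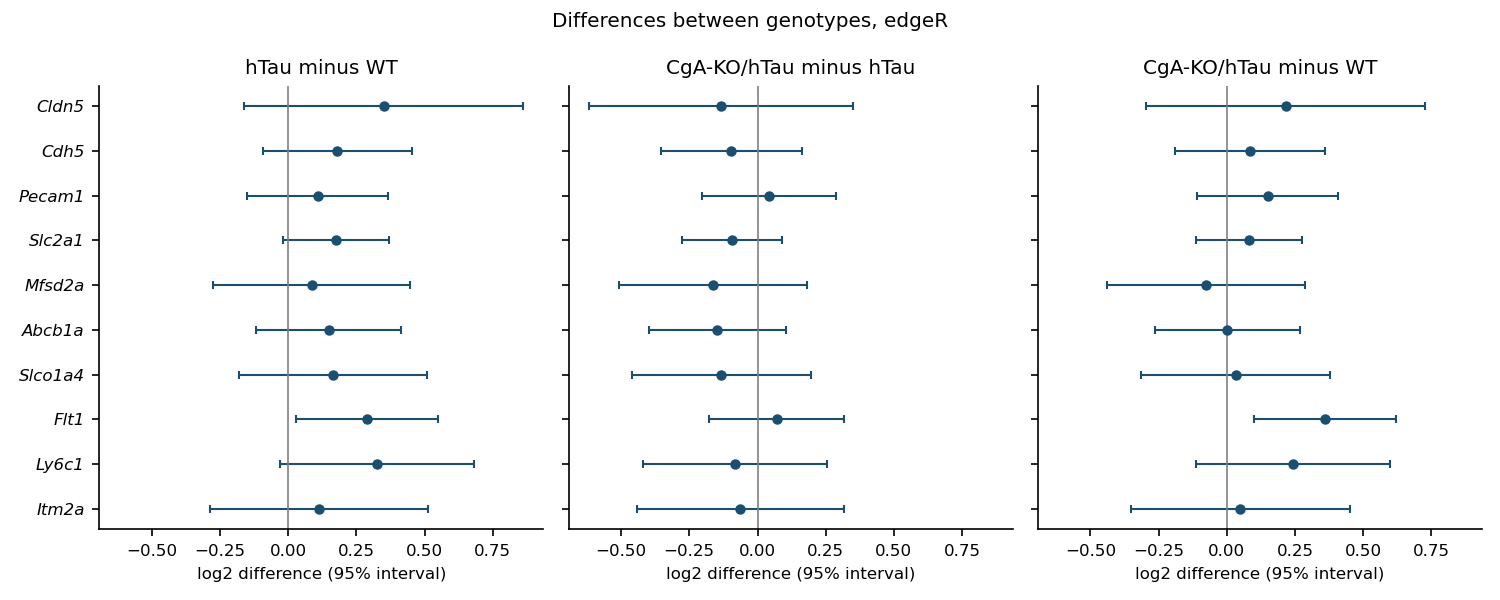
Log2 difference (x axis) of each barrier gene between genotypes with its unadjusted 95% interval, in 3 panels for hTau minus WT, CgA-KO/hTau minus hTau and CgA-KO/hTau minus WT. In hTau minus WT all 10 points are above 0, and across the panels the interval of Flt1 in both comparisons with WT is the only one that leaves out 0.

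Over the 10 genes the differences were small and mostly of one sign in a comparison. Between hTau and WT all 10 were positive, with a median log2 difference of 0.17 beside 0.01 for all genes tested. Between CgA-KO/hTau and hTau 8 were negative and 2 positive (Pecam1 and Flt1), with a median of -0.09 beside 0.03. Between CgA-KO/hTau and WT 9 were positive and 1 negative (Mfsd2a), with a median of 0.08 beside 0.01. With the level of the general endothelial genes described below as a covariate, most signs in hTau against WT changed. In that fit Slc2a1 (0.09) and Ly6c1 (0.26) alone stayed positive. The other barrier genes ran from -0.37 (Mfsd2a) to -0.02 (Cdh5), and none was called. The general endothelial genes mark the same cells, and their summed level did not overlap between WT (368 to 455 CPM) and hTau (479 to 606 CPM). That fit thus takes out signal that the barrier genes share with them, and is no check of the signs. These comparisons share their libraries, and the genes share their cells, so the signs are not independent of each other.

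The genes also varied together from library to library. Their summed level was 278.5 ± 23.8 CPM (SD, n = 5) in WT, 321 ± 33.0 CPM (SD, n = 6) in hTau and 310 ± 34.6 CPM (SD, n = 6) in CgA-KO/hTau, with ranges of 252 to 307, 256 to 341 and 260 to 346 CPM. Library hTau 1 was the lowest of its genotype for 8 of the 10 genes, and in WT the lowest was WT 4 for 4 genes and WT 5 for another 4. CgA-KO/hTau 6 was the lowest of its genotype for 4. The 4 libraries of low Slc1a2 had summed levels of 252, 256, 288 and 260 CPM, against 262 to 346 CPM in the other 13; whether what sets these 4 apart has a part in the levels of the barrier genes was not tested. Over the 17 libraries, which also share depth and tissue content, the correlation of each gene with the mean of the other 9 was 0.77 for Pecam1, 0.75 for Mfsd2a and 0.70 for Flt1, and lowest for Ly6c1 at 0.33 and Slc2a1 at 0.38. Ly6c1 and Slc2a1 thus followed the group least.

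**Figure D3:**
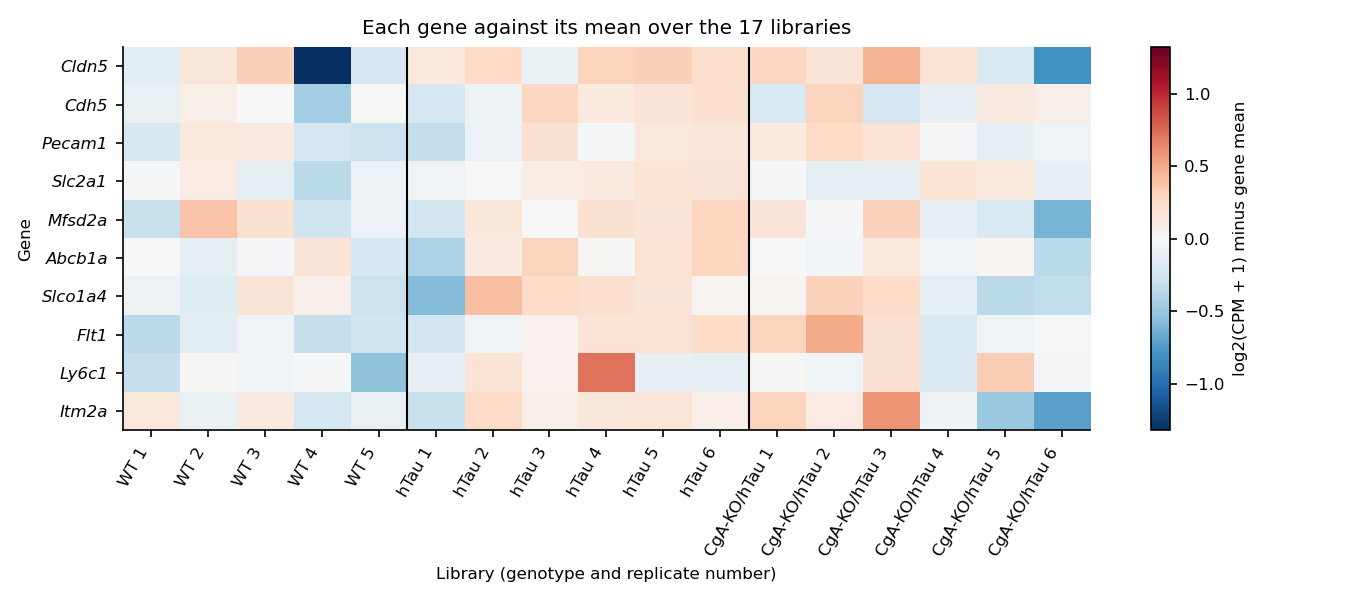
Level of each barrier gene (rows) in each of the 17 libraries (columns, grouped by genotype), as log2(CPM + 1) minus the mean of that gene over all libraries; red is above and blue below the mean. Cldn5 in WT 4 is the deepest blue, hTau 1 and CgA-KO/hTau 6 are blue for most genes, and Ly6c1 stands out in red in hTau 4.

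Among all other tested genes, those whose log2(CPM + 1) followed the mean of the barrier genes most closely over the 17 libraries included Bcar3, Shc1, Fzd6, Acot11, Tfcp2l1, Tmem51, Adamtsl5, Lamb2 and Wwc1. Their Pearson correlations ran from 0.922 for Bcar3 to 0.875 for Wwc1. Fzd6 is a Wnt receptor and Lamb2 a laminin chain of basement membranes. None of these genes belongs to the gene lists described next.

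The barrier genes were then set beside the rest of the vascular programme, in lists of other genes. Of 15 further barrier transporters, none was called between hTau and WT or between CgA-KO/hTau and hTau, and 1 was called in CgA-KO/hTau against WT. That gene was Abcb1b, the second mouse gene for P-glycoprotein and a close copy of Abcb1a. It had a mean of 3.03 ± 0.35 CPM (SD, n = 5) in WT, 3.92 ± 0.30 CPM (SD, n = 6) in hTau and 4.28 ± 0.48 CPM (SD, n = 6) in CgA-KO/hTau, with WT libraries at 2.53 to 3.44 CPM below all libraries of the other genotypes. The log2 difference of CgA-KO/hTau from WT was 0.50 (SE 0.12, adjusted p = 0.0236), beside 0.00 for Abcb1a. Its hTau libraries lay above WT by 0.37 (adjusted p = 0.0881).

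Of 14 further junction genes, 2 were lower in hTau than in WT, Ctnnb1 by 0.49 (adjusted p = 0.0162) and Pard3 by 0.72 (adjusted p = 0.0244) on the log2 scale. Ctnnb1 encodes beta-catenin, which binds cadherins and carries the Wnt signal, and it was higher again in CgA-KO/hTau than in hTau (log2 0.41, adjusted p = 0.0287). Its level was 306 to 390 CPM in WT, 185 to 284 CPM in hTau and 297 to 383 CPM in CgA-KO/hTau, so that hTau lay below both. It is expressed in neurons and glia as well. With the striatal level as a covariate none of these calls held, at -0.18 for Ctnnb1 (adjusted p = 0.463) and -0.04 for Pard3 (adjusted p = 0.924) in hTau against WT, and 0.27 for Ctnnb1 (adjusted p = 0.122) in CgA-KO/hTau against hTau. In hTau against WT the striatal level goes with genotype, so the calls lost there do not separate tissue content from genotype. Marveld2, the tricellulin of junctions where 3 cells meet, was lower in CgA-KO/hTau than in hTau by 1.20 (adjusted p = 0.00723) and than in WT by 0.87 (adjusted p = 0.0474), from low levels of 1.03 to 1.74 CPM in WT, 1.27 to 2.00 CPM in hTau and 0.41 to 1.23 CPM in CgA-KO/hTau. The other 12, 12 and 13 genes of the list, in the order of the comparisons, were not called, and neither were the junction genes Cldn5, Cdh5 and Pecam1.

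Of 26 genes of general endothelial identity, 1 was called between hTau and WT. Vwf, the von Willebrand factor of larger vessels, was higher in hTau, at 16.9 to 30.5 CPM against 8.67 to 18.9 CPM in WT (log2 0.77, adjusted p = 0.0297). Between CgA-KO/hTau and hTau 5 were called. Vwf was lower by 0.71 (adjusted p = 0.0287), Clec14a, an endothelial lectin, by 0.63 (adjusted p = 0.0322) and Ramp2, the co-receptor for adrenomedullin, by 0.59 (adjusted p = 0.04), while Ly6a, a neighbour of Ly6c1, was higher by 0.98 (adjusted p = 0.0286). The fifth, S1pr1, named after its value was seen, was higher by 0.45 (adjusted p = 0.0418). Against WT, CgA-KO/hTau was higher in Ly6a by 1.18 (adjusted p = 0.0217) and in S1pr1, the sphingosine phosphate receptor that steadies junctions and that astrocytes also express, by 0.67 (adjusted p = 0.0101). The summed level of the list was 368 to 455 CPM in WT, 479 to 606 CPM in hTau and 502 to 616 CPM in CgA-KO/hTau, with S1pr1 giving 30.3% of it. WT thus lay below both other genotypes in that sum, whereas the ranges of the 10 barrier genes overlapped. With the striatal covariate Vwf was no longer called in either comparison (adjusted p = 0.0695 and 0.0545), and Ly6a in CgA-KO/hTau against hTau was at 0.55 (adjusted p = 0.204).

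Signals that build and keep the barrier held several calls. Of all genes, 5.9% were called between hTau and WT, 9.72% between CgA-KO/hTau and hTau and 6.46% between CgA-KO/hTau and WT. Of 19 genes of the Wnt pathway in barrier endothelium, Fzd4, its main receptor there, was higher in hTau than in WT (11.4 to 15.5 CPM against 10.0 to 11.3 CPM, log2 0.38, adjusted p = 0.0269), Ctnnb1 changed as given above, and none was called between CgA-KO/hTau and WT. Among 18 genes of VEGF, angiopoietin and PDGF signalling, which hold the ligands and partners of Flt1, Angpt1, the ligand that stabilises vessels through Tie2, was lower in hTau than in WT by 1.52 (adjusted p = 0.00025). Its levels were 8.39 to 10.9 CPM in WT, 2.71 to 4.25 CPM in hTau and 2.95 to 7.13 CPM in CgA-KO/hTau, where it was lower than in WT by 0.88 (adjusted p = 0.0115) and higher than in hTau by 0.64 (adjusted p = 0.0343). Nrp2, a co-receptor for VEGF-C also made by neurons, was lower than in WT by 1.58 in hTau (adjusted p = 0.00172) and by 1.21 in CgA-KO/hTau (adjusted p = 0.0112). Apln, the peptide ligand of the apelin receptor, was higher than in WT by 0.92 (adjusted p = 0.0205) and 1.11 (adjusted p = 0.00853). Vegfc, a growth factor of lymphatic vessels, was lower in CgA-KO/hTau than in hTau by 0.71 (adjusted p = 0.0184). The striatal genes moved in the same comparisons. A fit with their level as a covariate cannot separate their part from genotype between hTau and WT. With that covariate, Angpt1 in hTau against WT was still called at -0.93 (adjusted p = 0.0256), while Nrp2 in hTau was at -0.70 (adjusted p = 0.152), Fzd4 at 0.45 (adjusted p = 0.0545) and Angpt1 in CgA-KO/hTau at -0.57 against WT (adjusted p = 0.0544) and 0.36 against hTau (adjusted p = 0.2).

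For vesicle transport, which Mfsd2a holds down, the RNA of 10 genes was read, and transport itself was not measured. Of these genes 7 were not called between hTau and WT, and 9 were not called in each of the other comparisons. Cav2, a caveolin, was higher than in WT in both transgenic genotypes, at 31.1 to 39.5 CPM in hTau and 33.0 to 58.5 CPM in CgA-KO/hTau against 13.0 to 26.2 CPM in WT (log2 0.85, adjusted p = 0.00549, and 1.18, adjusted p = 0.00087). Lrp1, a scavenger receptor shared by neurons and glia, was higher in hTau than in WT by 0.39 (adjusted p = 0.0372) and lower in CgA-KO/hTau than in hTau by 0.39 (adjusted p = 0.023). Cd36, a fatty acid receptor, was lower in hTau than in WT by 3.51 (adjusted p = 0.00567), from 0.68 to 4.11 CPM in WT to 0.11 to 0.40 CPM in hTau; with the striatal covariate it was at -1.61 (adjusted p = 0.244). In CgA-KO/hTau none of the 10 was called lower than in WT.

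Lists of single vessel segments and of endothelial activation also held calls, to be read beside the shares of all genes given above. In the arterial list all 10 genes were negative between CgA-KO/hTau and hTau, with a median log2 difference of -0.41 beside 0.03 for all genes, and 2 of them were called, the gap junction gene Gja4 (lower by 0.80, adjusted p = 0.0209) and the semaphorin Sema3g (lower by 0.51, adjusted p = 0.0336). Efnb2, the ephrin of arteries, was lower than in WT by 0.45 in hTau (adjusted p = 0.0206) and by 0.64 in CgA-KO/hTau (adjusted p = 0.00349). It was the 1 negative gene of the arterial list in hTau against WT, where the other 9 were positive and the median was 0.27. In CgA-KO/hTau against WT 3 arterial genes were positive and 7 negative, with a median of -0.14. In the venous list of 8, Nr2f2, the transcription factor of vein identity that some neurons share, was lower than in WT by 2.00 in hTau (adjusted p = 0.000917) and by 1.24 in CgA-KO/hTau (adjusted p = 0.0206), and Vwf changed as above. Of 9 tested genes of endothelial activation, hTau was higher than WT in the thrombomodulin gene Thbd by 0.90 (adjusted p = 0.0114), and Lrg1 was lower in CgA-KO/hTau than in hTau by 1.13 (adjusted p = 0.0486). None of the 9 was called between CgA-KO/hTau and WT. The striatal covariate left Thbd at 0.55 (adjusted p = 0.247) and Gja4 at -0.75 (adjusted p = 0.0681).

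Some genes of the cells and matrix around the endothelium were called, to be read beside the same shares of all genes. None of 11 pericyte genes was called in any comparison, and their summed level was 152 to 199 CPM in WT, 155 to 204 CPM in hTau and 160 to 251 CPM in CgA-KO/hTau. Of 10 basement membrane genes 1 was called, the laminin chain Lama4, higher in hTau than in WT by 0.54 (adjusted p = 0.0433), but at 0.17 (adjusted p = 0.65) with the striatal covariate. Of 7 smooth muscle genes 1 was called, Pln, higher in CgA-KO/hTau than in hTau by 1.89 (adjusted p = 0.0217) at levels of at most 1.27 CPM in either. Dcn, of fibroblasts and meninges, was lower than in WT by 2.11 in hTau (adjusted p = 0.0208) and by 1.88 in CgA-KO/hTau (adjusted p = 0.0372), with WT spread from 3.88 to 60.8 CPM. It was the 1 negative gene of its list of 9 in hTau against WT, where the other 8 were positive, none of them called, and the median was 0.70. In CgA-KO/hTau against WT 6 genes of that list were positive and 3 negative. Of 10 genes of astrocyte endfeet, Aqp4, the water channel, was higher in CgA-KO/hTau than in hTau by 0.67 (adjusted p = 0.0366), and Dmd, dystrophin, higher in CgA-KO/hTau than in WT by 0.40 (adjusted p = 0.0392); with the striatal covariate they were at 0.32 (adjusted p = 0.254) and 0.28 (adjusted p = 0.126). No gene of the microglia list of 8 or the red blood cell list of 5 was called.

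Many of the calls in these vascular lists did not hold in every fit with 1 library left out or with a covariate for tissue content. Of list genes and of Ly6c2, 44 called differences were followed through the alternatives, and none of the 44 took the other sign under an alternative. With the striatal level as a covariate 20 of them were still called, 5 of 16 between hTau and WT, 5 of 15 between CgA-KO/hTau and hTau and 10 of 13 between CgA-KO/hTau and WT. Between hTau and WT the striatal level goes with genotype, so a call lost in that fit does not separate tissue content from genotype. With the most alike libraries summed (hTau 4 to 6, and CgA-KO/hTau 1 and 3) 10 of the 44 were still called, in the same order 4, 0 and 6. This leaves fewer samples in the fit, and the calls lost include Thbd, Cd36, Gja4, Vegfc and Marveld2. Those called under every alternative run were Angpt1 in hTau against WT and Efnb2 and Cav2 in CgA-KO/hTau against WT. With each of the 17 libraries left out in turn, Vwf was called in 9 of 17 fits between hTau and WT, at differences of 0.66 to 0.93, and in 10 of 17 between CgA-KO/hTau and hTau, at -0.78 to -0.60. The least often called were Marveld2 in CgA-KO/hTau against WT (2 of 17), Lrg1 (3 of 17) and Lama4 (7 of 17).

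Markers of other cells differed between genotypes too. In the oligodendrocyte list of 8, 2 genes were higher in CgA-KO/hTau than in hTau and 2 than in WT. Of 10 neuronal genes, 1 was lower in hTau than in WT, and in CgA-KO/hTau 2 were lower than in hTau and 2 than in WT. Of 9 choroid plexus genes 6 were lower in hTau than in WT, and of 10 striatal genes 7 were higher in CgA-KO/hTau than in hTau. These marker levels moved with the genotypes beside every difference given above. Their part in the levels of the barrier genes was not tested beyond the fit with the striatal level as a covariate, which cannot separate that level from genotype between hTau and WT.

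Ly6c1 could be set against a near-identical gene. Ly6c2 lies beside it on mouse chromosome 15 and encodes the Ly6C antigen of monocytes. The coding sequences of the first transcripts of both genes in GENCODE M21 (GRCm38) are 393 bases long and differ at 9 positions (97.7% identity), and the first 180 bases, with 6 of these differences in capitals, show how far the genes share their sequence. The coding sequence of Ly6c1 spans chr15:75045405-75048511 on the minus strand, introns included, and that of Ly6c2 chr15:75108546-75111667, also on the minus strand.
Ly6c1: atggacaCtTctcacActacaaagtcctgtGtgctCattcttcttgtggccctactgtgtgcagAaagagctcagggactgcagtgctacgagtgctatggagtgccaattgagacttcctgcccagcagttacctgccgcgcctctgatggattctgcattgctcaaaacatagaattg
Ly6c2: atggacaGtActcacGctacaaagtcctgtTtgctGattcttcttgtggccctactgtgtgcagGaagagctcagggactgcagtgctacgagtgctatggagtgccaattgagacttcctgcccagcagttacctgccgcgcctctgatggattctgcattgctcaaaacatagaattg
Of the 1756 windows of 100 bases, the read length, in the transcripts of Ly6c1, 10.1% also occur in another gene (Ly6c2 or Ly6a). The corresponding share was 9.23% for Abcb1a, 0.64% for Slco1a4, and 0 for the other 7 barrier genes.

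Ly6c2 fell in CgA-KO/hTau while Ly6c1 was not called. Its level was 3.67, 3.84, 4.07, 1.94 and 2.38 CPM in WT 1 to 5, from 3.48 to 5.54 CPM in hTau (median 3.73) and from 1.16 to 2.43 CPM in CgA-KO/hTau (median 1.74). All CgA-KO/hTau libraries lay below all hTau libraries, and WT spanned the gap. The log2 difference of CgA-KO/hTau was -1.18 from hTau (SE 0.22, adjusted p = 0.00544) and -0.86 from WT (SE 0.23, adjusted p = 0.0342). The call against hTau held with each of the 17 libraries left out in turn, and was lost (adjusted p = 0.0568) only when the most alike libraries were summed. Against WT it was lost without WT 1, WT 2, WT 3, CgA-KO/hTau 1 or CgA-KO/hTau 3, at differences of -0.97 to -0.75 over the libraries left out, and under 4 other alternatives. The difference of the 2 genes' responses was not tested. Over the same libraries Ly6c1 was 10.3 to 15.1 CPM in CgA-KO/hTau, with all of its interval against hTau above -0.42, while the interval of Ly6c2 ended at -0.72.

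**Figure D4:**
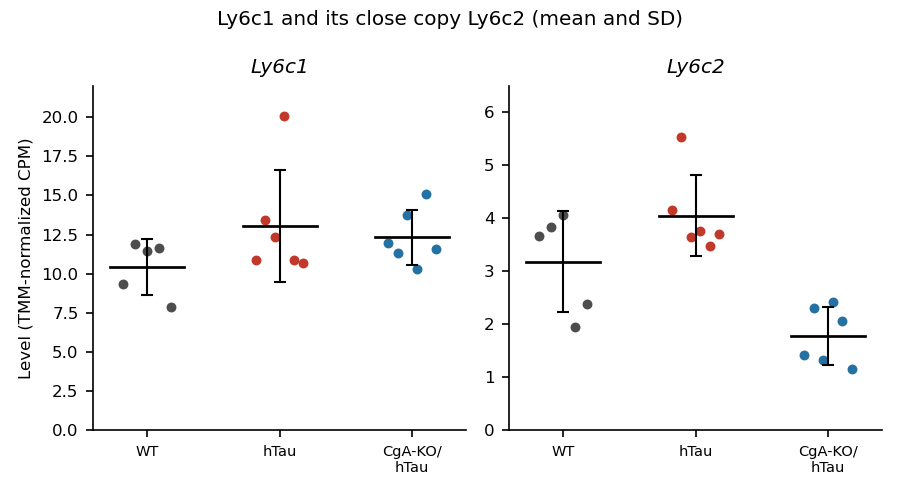
Level of Ly6c1 (left) and Ly6c2 (right) in TMM-normalized CPM (y axes from 0, on different scales) in WT, hTau and CgA-KO/hTau libraries, with the mean and 1 SD. Ly6c2 in CgA-KO/hTau, at 1.16 to 2.43 CPM, lies below all hTau libraries, while the Ly6c1 ranges overlap.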

How the data were processed

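Per the labels and the methods, mRNA of prefrontal cortex was sequenced as paired-end reads. The authors checked reads with FastQC, trimmed them with Trimmomatic 0.39, aligned them to mm10 with STAR 2.7.10b and quantified genes with StringTie 1.3.6. They deposited whole-number counts per gene, made from StringTie coverage and not normalized. In the table a count of 3 occurred 26079 times, against 16404 for 2 and 8397 for 4, so a count is not a single fragment, and low levels look more precise than they are. Strandedness of the counting and the annotation release are not given in the sources used here. Coordinates are those of GENCODE M21 (GRCm38).

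The deposited counts were tested with edgeR 4.0.16 in R 4.3.3: TMM library sizes, filterByExpr, 1 mean per genotype over all 17 libraries, quasi-likelihood F test and Benjamini-Hochberg adjustment over 23062 genes, with a common biological coefficient of variation of 0.316. Intervals are unadjusted 95% intervals of the fit, and total counts per library were 8838334 to 227651681. Alternatives were DESeq2 1.42.0, limma 3.58.1 voom, other scaling, filters and covariates, a replicate block and each library left out in turn. Leaving out the 4 libraries of low Slc1a2, and applying the alternatives to list genes, were chosen after seeing the data. The 10 genes and all lists were chosen with earlier results of these data known. Named genes are the 10, their close copies, up to 4 called genes per list and comparison with the smallest p, and the 10 genes most correlated with them; a few of these are not reported here. Values were tabulated with pandas 2.3.3 (Python 3.11.15) and drawn with matplotlib 3.10.9.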

Additional observations from a re-analysis of the deposited data

Results flagged for a closer look

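Of 30 groups, each of the 10 genes in each genotype, 2 held a library that stood apart from the others of its group by Dixon's criterion, which chance meets in about 1 group in 20. Ly6c1 was at 20.05 CPM in hTau 4, the highest of its group, and the gap to the next library was 0.703 of the whole range. The other genes of hTau 4 were within the range of their group or at its edge, and hTau 5 and hTau 6, the libraries most like it over 3761 well-covered genes, had Ly6c1 at 10.9 and 10.7 CPM. Itm2a was at 20.61 CPM in hTau 1, the lowest of its group, with a gap of 0.631 of the range; that library was lowest for 8 of the 10 genes.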

How the results depend on the processing

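The count of 0 called barrier genes was recomputed under 30 alternatives in each of the 3 comparisons. Between CgA-KO/hTau and hTau it was 0 under all 30. Between hTau and WT it was 1 with limma voom (Flt1, 0.32, adjusted p = 0.0413), 2 with the striatal level as a covariate (Flt1 and Itm2a) and 1 with the 4 libraries of low Slc1a2 left out (Abcb1a), and 0 in all 17 fits without 1 library. Between CgA-KO/hTau and WT it was 1 with the striatal covariate and 1 with those 4 libraries left out (Flt1 in both), and 0 to 1 with 1 library left out, the 1 being Flt1 without CgA-KO/hTau replicate 4. The cause was not tested. Of 900 differences of single genes under an alternative, 49 had the other sign and 7 were called. The replicate block left 0 of the 10 barrier genes called in each comparison. Samples of the same number had deviations that correlated at -0.232 to 0.437, so the numbers were not taken to pair the animals. Calls over all genes moved more: 1361 between hTau and WT became 430 with the most alike libraries summed and 3967 with limma voom, 2242 between CgA-KO/hTau and hTau became 159 and 5229 under the same settings, and 1489 between CgA-KO/hTau and WT became 266 with only those genotypes in the fit and 5021 with the striatal covariate. Leaving out 1 library gave 632 to 1658, 1019 to 3822 and 627 to 2099. With DESeq2, which tested 39993 genes in place of 23062, the median log2 difference of all genes between CgA-KO/hTau and hTau was 0.13 in place of 0.03. Cldn5 had the lowest count of any barrier gene, 55 in WT 4, a library that was both the shallowest and low in Slc1a2.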

Other observations

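The neighbourhood of Ly6c1 on chromosome 15 held several calls. Within 500 kb of the gene 13 genes were tested, Ly6c1 included, a window chosen after the values of Ly6a and Ly6c2 were seen. Between CgA-KO/hTau and hTau 1 was higher (Ly6a) and 3 were lower (Ly6c2, Lynx1 and Them6), where 9.72% of all genes were called. Between hTau and WT 1 was higher and 0 lower, beside 5.9% of all genes called. Between CgA-KO/hTau and WT 1 was higher and 1 lower, beside 6.46%. Lynx1, a Ly6 family protein that binds nicotinic receptors of neurons, was at 305 ± 43.0 CPM (SD, n = 5) in WT, 539 ± 44.3 CPM (SD, n = 6) in hTau and 329 ± 32.0 CPM (SD, n = 6) in CgA-KO/hTau, and was higher in hTau than in WT by 0.82 (adjusted p = 0.000293). Ly6e, another Ly6 gene, was at 64.1 ± 14.3, 91.5 ± 6.20 and 82.3 ± 34.0 CPM (SD, n = 5, 6 and 6) in the same order and was not called. Ly6a and Ly6c2, on either side of Ly6c1, thus had opposite signs in CgA-KO/hTau against hTau, 0.98 and -1.18, with Ly6c1 between them at -0.08. What sets these neighbours apart was not tested.

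The ratio of the barrier genes to other endothelial genes varied by library. The summed CPM of the 10 barrier genes divided by that of the 26 general endothelial genes, 30.3% of which is S1pr1, was 0.574 to 0.711 in WT, 0.535 to 0.612 in hTau and 0.504 to 0.632 in CgA-KO/hTau. Library WT 5, with the highest Ttr, had the highest ratio, and the lowest ratio of each genotype was in a library of low Slc1a2 (WT 4, hTau 1 and CgA-KO/hTau 6).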
